A study of Mus musculus with 4 samples.

Results

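The translation of 8 caspase pathway genes was followed in cultured mouse female germline stem cells (FGSCs) after knockdown of the long noncoding RNA Gm26917. The genes were Casp1, Casp2, Casp6, Casp8 and Casp9, the activators Apaf1 and Fadd, and the inhibitor Xiap, taken by name from a table of 30694 genes and from a table of 4669 open reading frames (ORFs). All 8 were in the gene table, 7 of them had a value above 0 in every library, and 2 of them, Fadd and Xiap, had an ORF listed. The comparison set 2 libraries of FGSCs carrying a lentiviral short hairpin RNA against Gm26917 (shGm26917) against 2 libraries of FGSCs carrying a control hairpin (shNC). Cells of both groups came from ovary, were infected with lentivirus and were treated with cycloheximide before lysis, which holds ribosomes on the mRNA. The study made several hairpins against Gm26917, and the sources used here do not name the one that the profiled cells carried. The comparison addressed whether loss of Gm26917 shifted how well each mRNA was translated. It was read as translation efficiency (TE), the ratio of ribosome footprints to RNA of a gene in a library.

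Caspases are cysteine proteases that are made as inactive precursors and cut their substrates after aspartate. In the extrinsic pathway of apoptosis a bound death receptor recruits the adaptor FADD, which gathers and activates caspase-8. In the intrinsic pathway cytochrome c released from mitochondria assembles APAF1 into the apoptosome, which activates caspase-9, and both routes end in caspases that dismantle the cell, caspase-6 among them. XIAP binds and blocks active caspases such as caspase-9, caspase-2 is activated in the PIDDosome, and caspase-1 is the protease of inflammasomes. Activation of the caspases proceeds by assembly and cleavage of proteins, which ribosome footprints do not show.

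The libraries differed in what they listed before any gene was compared. Of the 4669 ORFs, shGm26917 replicates 1 and 2 listed 372 and 4250 above 0, and shNC replicates 1 and 2 listed 4211 and 3421. Recovered footprint reads on ORFs ranged from 157914 in shGm26917 replicate 1 to 1753036 in shGm26917 replicate 2. How many reads stand behind a TE is unknown, because only the ratio was listed. Gm26917 itself had a TE of 113 and 8.62 in shGm26917 and of 17.0 and 23.8 in shNC, a ratio that says nothing of how much of the RNA was left, and the knockdown itself could not be checked. Of 10 germline markers, Ifitm3, Gfra1 and Kit had a TE above 0 in all libraries, as did 10115 of the 30694 genes. Prdm1 was at 0 in both shGm26917 libraries and at 0.821 and 1.61 in shNC, and Zbtb16 was at 0 in shGm26917 replicate 1 only. The study itself reported RT-PCR of Oct4, Ddx4, Fragilis and Blimp1 and staining of DDX4 and OCT4 in its FGSCs. A TE above 0 needs footprints, so a missing one is not read as absence of the gene's RNA. For the germ cell helicase Ddx4 only shNC replicate 2 gave a ratio, which was 0. For Pou5f1, which encodes OCT4, only shNC replicate 1 gave a ratio, also 0. Dazl, Dppa3 and Tfap2c were looked for by name and were not among the 30694 genes. Of the markers of other cells, 4 of 8 macrophage markers and 5 of 6 stromal markers were above 0 in all libraries, while none of 5 granulosa markers was. Nothing in the labels says that the replicates were separate cultures, although the study calls them biological, so the p-values measure the spread between these libraries, which may be technical.

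For none of the 7 tested caspase pathway genes was a difference in TE between shGm26917 and shNC detected beyond the spread between libraries. The study itself reported more apoptosis and more cleaved caspase-3 protein after Gm26917 knockdown. Cleavage of a protein is not read by TE, and the gene of caspase-3 is not among the 7. Limma was run across all 10115 genes with a TE above 0 in every library, and 0 of the 7 tested genes passed an adjusted p of 0.05 or an unadjusted p of 0.05. Over all genes 0% were called at the adjusted threshold, with a smallest adjusted p of 0.965, while the unadjusted p was under 0.05 for 219 genes. Without shGm26917 replicate 2 limma called 583 genes, none of them among the 7. The study's threshold was a TE difference of 1.5-fold or more at a p up to 0.05. With the unadjusted limma p used here, 0 of the 7 reached it, against 2.17% of all genes tested. The authors' own p-values were not used, so their calls for the 7 were not checked. In sign, 5 log2 changes were positive and 2 negative, with a median of 0.24 (0.11 to 0.21 with 1 library left out), against 0.00095 and 50.0% positive over all genes tested. The 2 shGm26917 values lay above both shNC values for Fadd and Casp2, as they did for 16.1% of all genes tested, and below both for none of the 7, as they did for 14.8%. In the other 5 genes the groups overlapped.

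**Figure D1:**
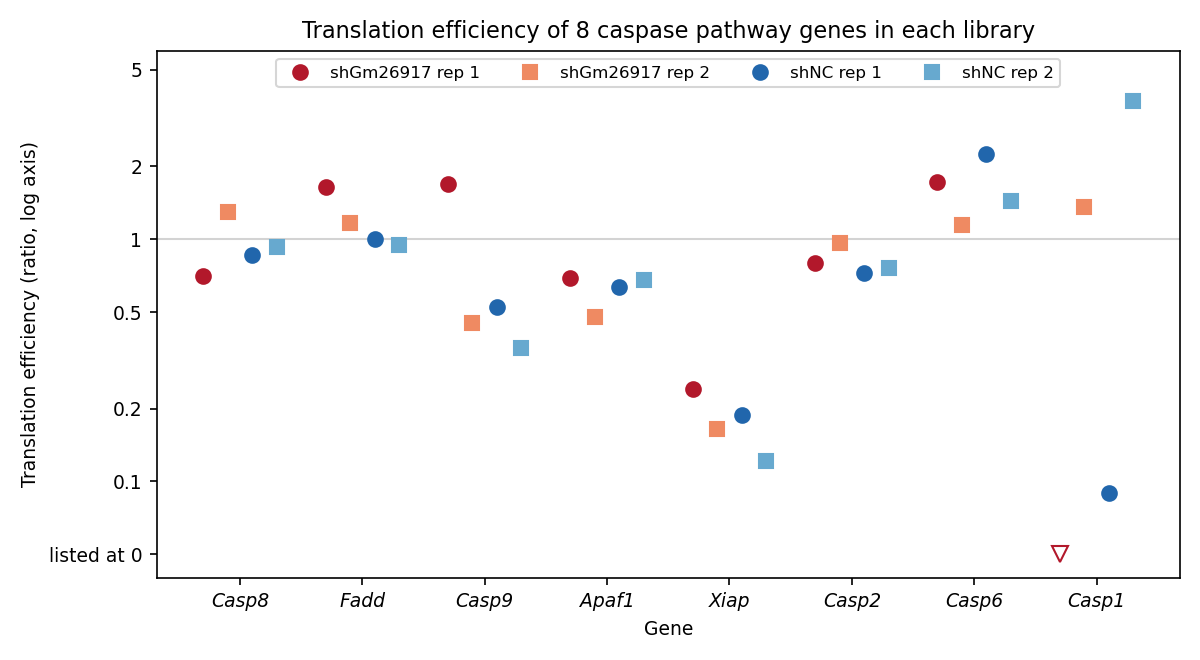
Translation efficiency (ratio of footprints to RNA, log axis) of the 8 genes in each library, with shGm26917 in red tones left of shNC in blue tones, and 1 point per library. Xiap lies lowest among the genes above 0 in all libraries, between 0.121 and 0.241, Casp9 has 1 high point in shGm26917 replicate 1, and the open triangle marks Casp1 listed at 0.

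Fadd and Casp8 form the death receptor arm. Fadd (chromosome 7, 144577318 to 144582463, minus strand, mm10) encodes the adaptor that joins death receptors to caspase-8. Its TE was 1.65 and 1.16 in shGm26917 replicates 1 and 2, against 1.00 and 0.948 in shNC replicates 1 and 2. The shGm26917 libraries were both higher, and they differed from each other by more than the shNC libraries did. The log2 change was 0.51 ± 0.34 (SE, 2 libraries in each group, adjusted p = 0.965 by limma), with a 95% interval from -0.37 to 1.38, and Fadd had the smallest unadjusted p of the 7 genes (0.196, limma). It stayed positive with any library left out, from 0.25 without shGm26917 replicate 1 to 0.76 without shGm26917 replicate 2. A noncoding antisense gene, Faddos, covers 81.5% of the Fadd span on the opposite strand. Faddos was listed at a TE of 0 in all 4 libraries, and whether reads were counted by strand is not given in the sources used here.

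Casp8 (chromosome 1, 58795374 to 58847503, plus strand) encodes the initiator caspase that FADD recruits. Its TE was 0.708 and 1.30 in shGm26917, against 0.863 and 0.926 in shNC. The shGm26917 values lay on either side of the shNC values, so the groups overlapped. The log2 change was 0.10 ± 0.41 (SE, 2 libraries in each group, adjusted p = 0.980 by limma), the smallest of the 7 in size, and it turned to -0.34 without shGm26917 replicate 2. Without shGm26917 replicate 1 it was 0.54. The shNC values of Casp8 were 1.07-fold apart and those of shGm26917 1.84-fold. A gene model still to be experimentally verified, Gm37760, overlaps Casp8 on the same strand over 3841 bases, so reads there could count for either. Small noncoding RNA genes overlap Casp2 over 78 bases and Apaf1 over 103 bases.

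Casp9 and Apaf1 meet in the apoptosome. Casp9 (chromosome 4, 141793612 to 141815976, plus strand) encodes the initiator caspase of the intrinsic pathway. Its TE was 1.68 and 0.451 in shGm26917, against 0.527 and 0.356 in shNC. A single library was high, shGm26917 replicate 1, and the value of replicate 2 lay between those of the shNC libraries. The log2 change of 1.01 ± 0.72 (SE, 2 libraries in each group, adjusted p = 0.965 by limma) was the largest of the 7 in size, with a 95% interval from -0.87 to 2.89. Without shGm26917 replicate 1 it was 0.060, and without shGm26917 replicate 2 it was 1.96. The shGm26917 libraries were 3.73-fold apart for Casp9, a wider gap than for 89.6% of all genes tested.

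Apaf1 (chromosome 10, 90989311 to 91082770, minus strand) encodes the scaffold that cytochrome c assembles. Its TE was 0.693 and 0.478 in shGm26917, against 0.635 and 0.679 in shNC. The lowest and the highest value were both in shGm26917, and the shNC libraries were 1.07-fold apart. Its log2 change of -0.19 ± 0.36 (SE, 2 libraries in each group, adjusted p = 0.968 by limma) turned to 0.078 without shGm26917 replicate 2. The partners thus had estimates of opposite sign with intervals that both included 0, and the difference between them was not tested.

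Xiap was the least efficiently translated of the 7 genes in every library. Xiap (chromosome X, 42059679 to 42109656, plus strand) encodes the inhibitor that binds active caspases directly. Its TE was 0.241 and 0.164 in shGm26917, against 0.189 and 0.121 in shNC. In each group replicate 1 was the higher, and the groups overlapped. For Xiap the log2 change was 0.40 ± 0.48 (SE, 2 libraries in each group, adjusted p = 0.965 by limma), with a 95% interval from -0.87 to 1.66. It stayed positive with any library left out, at 0.12 without shGm26917 replicate 1, 0.078 without shNC replicate 2 and 0.71 without shNC replicate 1. Xiap stood at the 10.2 and 4.12 percentile of all tested genes in shGm26917, and at the 4.39 and 2.66 percentile in shNC. RefSeq lists 16 transcripts for Xiap, and a ratio per gene does not separate them.

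Casp2, Casp6 and Casp1 belong to other branches. Casp2 (chromosome 6, 42264985 to 42282508, plus strand) encodes a caspase that responds to DNA damage and surplus centrosomes. Its TE was 0.800 and 0.964 in shGm26917, against 0.728 and 0.757 in shNC. All 4 values were close, with replicates 1.21-fold apart in shGm26917 and 1.04-fold apart in shNC, and the groups did not overlap. For Casp2 the log2 change was 0.24 ± 0.32 (SE, 2 libraries in each group, adjusted p = 0.965 by limma) and stayed between 0.11 and 0.38 with 1 library left out. Casp2 had the smallest standard deviation of log2 TE over the 4 libraries among the 7 genes (0.18), and Casp9 the largest (1.00).

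Casp6 (chromosome 3, 129901425 to 129914103, plus strand) encodes an effector caspase that cuts nuclear lamins. Its TE was 1.73 and 1.14 in shGm26917, against 2.24 and 1.44 in shNC. In each group replicate 1 was the higher, and the groups overlapped. For Casp6 the log2 change was -0.35 ± 0.40 (SE, 2 libraries in each group, adjusted p = 0.965 by limma), and it stayed negative with any library left out, between -0.67 without shNC replicate 2 and -0.037 without shNC replicate 1. Without shGm26917 replicate 2 it was -0.055.

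Casp1 (chromosome 9, 5298508 to 5307290, plus strand) encodes the caspase that matures interleukin-1 beta and cuts gasdermin D. It was listed at a TE of 0 in shGm26917 replicate 1 and had 1.36 in shGm26917 replicate 2, against 0.0896 and 3.74 in shNC replicates 1 and 2. The control values alone were further apart than those of either group for any other of the 8 genes, and the shGm26917 replicate 2 value lay between them. Casp1 did not enter the main test because of the 0. On the log2(TE + 0.01) scale, with zeros kept and 13799 genes tested, the estimate was -2.39 ± 3.44 (SE, 2 libraries in each group, adjusted p = 0.955 by limma).

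**Figure D2:**
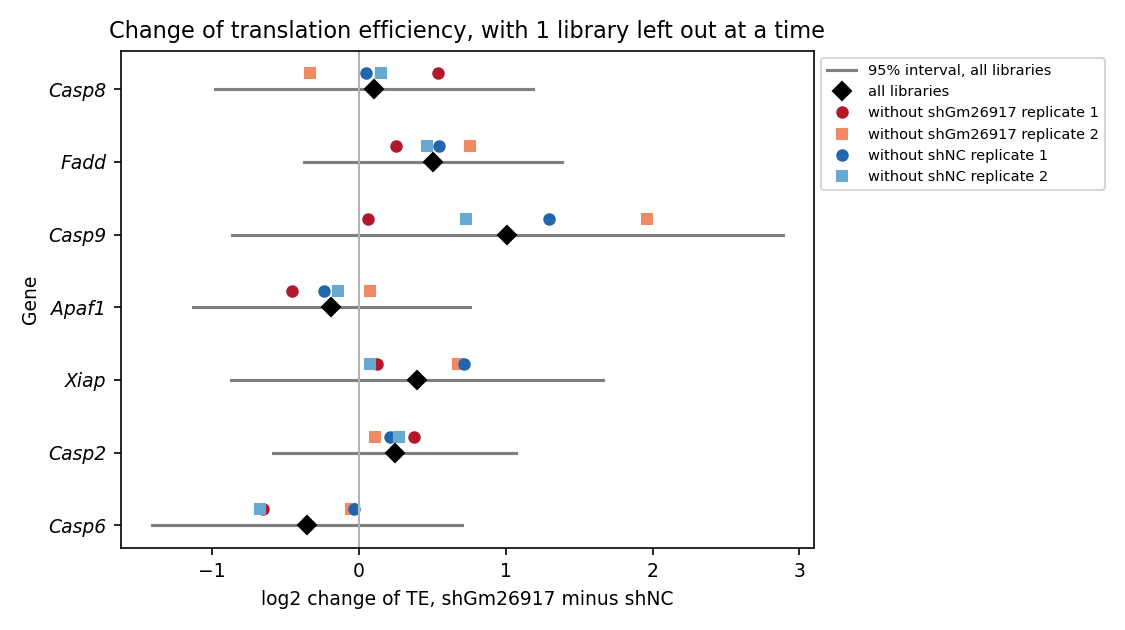
The log2 change of TE (shGm26917 minus shNC) for the 7 tested genes as black diamonds, with 95% intervals from limma as grey lines and the estimate with 1 library left out as coloured points. Every interval includes 0, and Casp9 shows the widest spread of estimates, from 0.060 without shGm26917 replicate 1 to 1.96 without shGm26917 replicate 2.

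Ordered by their geometric mean TE over the 4 libraries, the genes ran from Casp6 (1.59) through Fadd (1.16), Casp8 (0.926), Casp2 (0.807), Apaf1 (0.615) and Casp9 (0.614) to Xiap (0.173). Casp6 lay above Fadd, Fadd above Casp8, Casp8 above Casp2 and Apaf1 above Casp9 in 3 of 4 libraries each, so these neighbours did not separate beyond their spread. Casp2 lay above Apaf1 and Casp9 above Xiap in all 4. The highest of the 7 was Casp6 in 3 libraries and Casp8 in shGm26917 replicate 2. The ratio between the highest and the lowest was 7.18 and 7.91 in shGm26917 and 11.9 in each shNC library. The median TE of the 7 was 0.800 and 0.964 in shGm26917 and 0.728 and 0.757 in shNC, against medians of all tested genes between 0.990 and 1.00. Levels of different genes are set beside each other here as ratios, and whether footprints and RNA were counted over the same part of each transcript is not given in the sources used here.

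**Figure D3:**
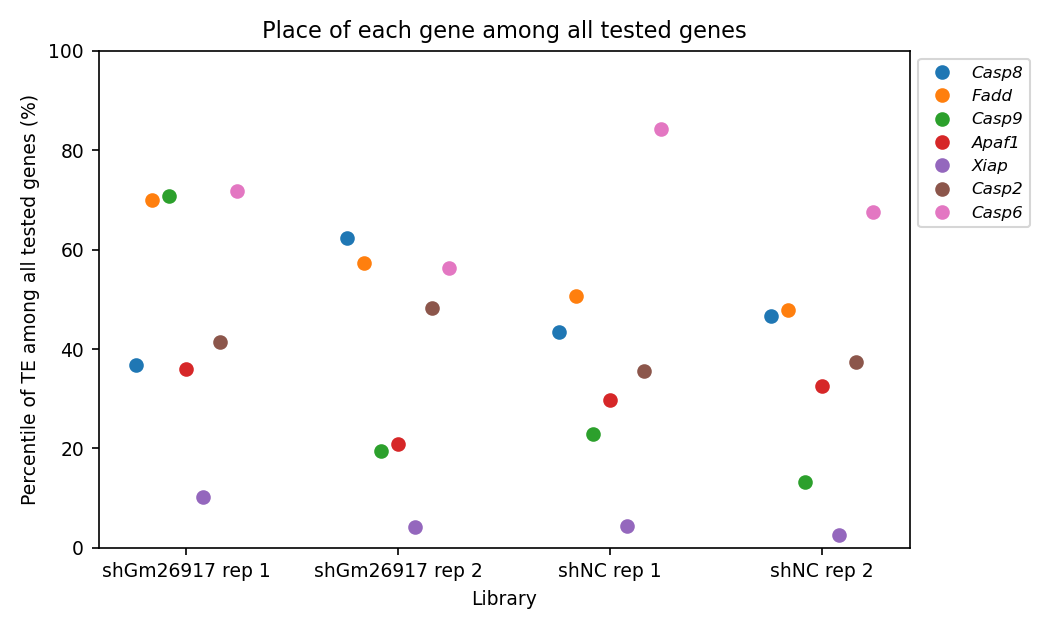
Percentile of each of the 7 genes by TE among all 10115 tested genes (percent), in each library, with shGm26917 left of shNC. Xiap stays between 2.66 and 10.2, Casp6 between 56.3 and 84.3, and Casp9 stands at 70.8 in shGm26917 replicate 1 and between 13.2 and 23.0 in the others.

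The genes with the most similar TE were named for the ends of this order, by the smallest Euclidean distance of log2 TE over the 4 libraries. For Casp6 they were the signalling ligand Wnt5a (distance 0.27), BC029722 (0.29) and the vesicle GTPase Rab34 (0.35). For Xiap they were the Hippo pathway scaffold Mob1a (0.38), Fam107b (0.43) and the RNA helicase Ddx43 (0.44). Mob1a, for example, had 0.190 and 0.167 in shGm26917 and 0.199 and 0.135 in shNC. The distance is over 4 libraries and is set by the level of the ratio as well as by its pattern.

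Replicates lay closer together in shNC than in shGm26917 for 5 of the 7 genes, and further apart for Casp6 and Xiap. The median gap between replicates of the 7 genes was 1.47-fold in shGm26917 and 1.07-fold in shNC, against 1.57-fold and 1.20-fold over all genes tested. In shNC, Casp2, Fadd, Apaf1 and Casp8 were each at most 1.07-fold apart, while Casp9, Casp6 and Xiap were 1.48-, 1.55- and 1.56-fold apart. The 4 closely matched genes in shNC had shGm26917 gaps between 1.21- and 1.84-fold.

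Footprints on single ORFs were listed for Fadd and Xiap alone among the 8 genes. An ORF was listed for 43.5% of the 9672 protein coding genes tested for TE. The Fadd ORF is an annotated coding sequence of 205 codons that starts at 144582389, 74 bases inside the 5′ end of the gene, and ends at 144580529. It had a size-adjusted value of 0 and 78.6 in shGm26917 replicates 1 and 2, against 62.4 and 0 in shNC replicates 1 and 2. The Xiap ORF is an annotated coding sequence of 496 codons from 42094399 to 42104984, beginning 34720 bases into the gene. It had 0 and 52.9 in shGm26917, against 79.8 and 0 in shNC. Each ORF was thus measured in 1 library per group, and the same 2 libraries listed both at 0.

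The libraries that listed a value rested on few reads. Fadd had 104 recovered reads (exact 95% Poisson interval 85.0 to 126) in shGm26917 replicate 2 and 79 (62.5 to 98.5) in shNC replicate 1. Xiap had 70 (54.6 to 88.4) in shGm26917 replicate 2 and 101 (82.3 to 123) in shNC replicate 1, where intervals cover counting error only. Per codon, the size-adjusted value of Fadd was 0.383 in shGm26917 replicate 2 and 0.304 in shNC replicate 1, at the 60.2 and 54.6 percentile of annotated ORFs above 0 in that library. Xiap had 0.107 and 0.161 per codon, at the 33.3 and 39.3 percentile. Between these same libraries, shGm26917 replicate 2 over shNC replicate 1, the ORF value had a ratio of 1.26 for Fadd and 0.663 for Xiap, and the TE had a ratio of 1.16 for Fadd and 0.871 for Xiap.

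The value of 0 is not read as absence. Fadd and Xiap both had a TE above 0 in the libraries that listed their ORFs at 0. The pattern, 0 in shGm26917 replicate 1 and shNC replicate 2 and above 0 in the other libraries, was shared by 25.7% of all ORFs, and 92.0% of ORFs were listed at 0 in shGm26917 replicate 1. With limma on log2(value + 1), neither ORF was called (adjusted p = 1.00 for Fadd and for Xiap), with 0 of 4669 ORFs at an adjusted p under 0.05. The log2 change was 0.16 ± 3.51 for Fadd and -0.29 ± 3.45 for Xiap (SE, 2 libraries in each group). With a 0 beside a listed value in each group, this test could not decide whether either ORF changed. Without shGm26917 replicate 2 limma called 1982 ORFs, Fadd and Xiap not among them. Neither stood at the study's threshold, where 7.37% of ORFs did. On the recovered reads edgeR and DESeq2 called 0 ORFs each, with 4 and 350 ORFs at an unadjusted p under 0.05, against 346 by limma.

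**Figure D4:**
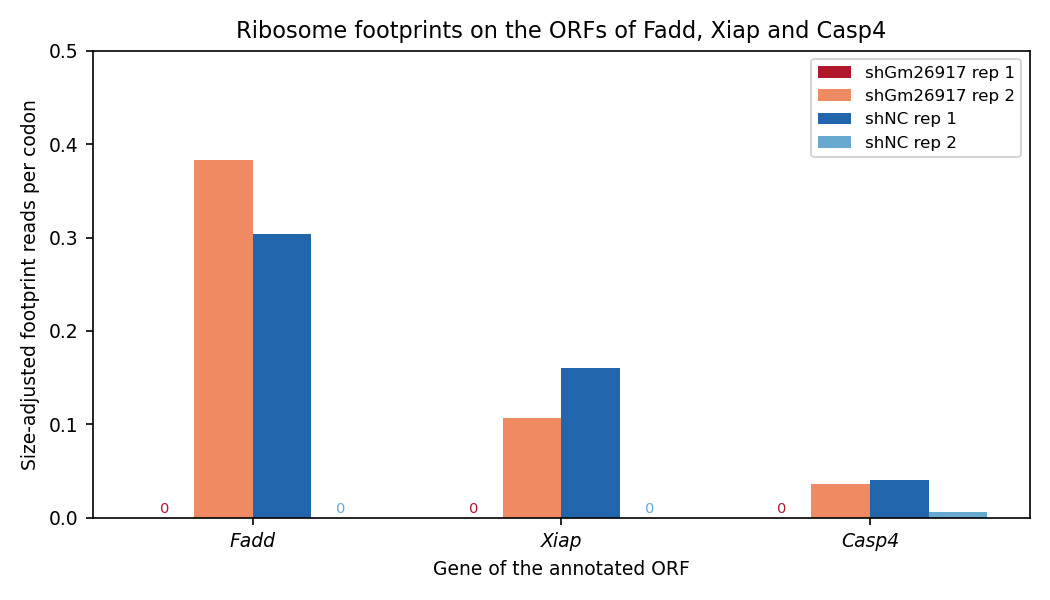
Size-adjusted footprint reads per codon on the annotated ORFs of Fadd, Xiap and Casp4, with shGm26917 left of shNC and 1 bar per library. Library values listed at 0 are marked, and Fadd is the highest, at 0.383 in shGm26917 replicate 2 and 0.304 in shNC replicate 1.

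The wider pathway was described through lists of named genes, none of which held a gene with an adjusted p under 0.05 when all libraries were used. Naip2, Diablo, Pycard, Bid and the cell type markers other than the first 3 measured of a list were named after their values were seen. Of 3 other caspases 2 were tested, Casp4 and Casp12, and both log2 changes were negative, with a median of -1.08 that was -0.18 without shGm26917 replicate 1. Casp4, the caspase that senses intracellular lipopolysaccharide, had a TE of 0.111 and 0.428 in shGm26917, against 0.544 and 0.412 in shNC, and the groups overlapped. Casp12, an endoplasmic reticulum caspase, had 0.304 and 0.972 against 1.13 and 1.11, both lower than in shNC (log2 change -1.04, limma adjusted p = 0.965). Casp12 was at -0.20 without shGm26917 replicate 1 and at -1.88 without shGm26917 replicate 2. On the Casp4 ORF of 373 codons the footprint values were 0 and 13.6 in shGm26917, against 15.0 and 2.33 in shNC, or 0.0365 per codon in shGm26917 replicate 2 and 0.0402 and 0.0062 in shNC.

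Of the inhibitor of apoptosis (IAP) list, with the XIAP antagonist Xaf1 and the NAIP sensors, 6 of 7 genes were tested and all 6 log2 changes were negative, with a median of -0.65. Xiap itself, outside that list, was at 0.40. Birc2, a ubiquitin ligase of tumour necrosis factor receptor complexes, had 0.567 and 0.470 in shGm26917, against 0.491 and 0.652 in shNC. Birc5, which encodes survivin of the chromosomal passenger complex, had 0.353 and 0.641 against 0.962 and 0.719, and the giant ligase Birc6 had 0.426 and 0.853 against 0.810 and 0.900. Their limma adjusted p ranged from 0.965 to 0.978. The lowest values of Birc5 and Birc6 were those of shGm26917 replicate 1, and Birc5 lay below both shNC values in replicate 2 as well. Over the list, 3 of the 6 tested genes lay below both shNC values and 0 above both, against 14.8% and 16.1% of all genes tested. Without shGm26917 replicate 1 the list had 1 positive and 5 negative changes with a median of -0.15. Naip2 of this list had 0.0967 and 0.607 in shGm26917, against 0.455 and 0.571 in shNC.

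Of the death receptor list 9 of 11 genes were tested, with 1 positive and 8 negative log2 changes and a median of -0.48. The death receptor Fas had 0.365 and 1.06 in shGm26917, against 1.31 and 1.28 in shNC. Tnfrsf1a, the tumour necrosis factor receptor, had 0.546 and 1.28 against 1.65 and 1.29, and the receptor kinase Ripk1 had 0.551 and 0.687 against 0.750 and 0.986. In each of these the shGm26917 values lay below both shNC values, with limma adjusted p of 0.965. Over the list, 4 of the 9 tested genes lay below both shNC values and 1 above both, against 14.8% and 16.1% of all genes tested. The shift again sat mostly in shGm26917 replicate 1, without which the median was -0.19 with 2 positive and 7 negative changes. Fas was at -0.29 without shGm26917 replicate 1 and at -1.83 without shGm26917 replicate 2. Fadd and Casp8, which act just downstream of these receptors, had positive estimates with intervals that both included 0. The Casp8 estimate turned to -0.34 without shGm26917 replicate 2, and the difference from the receptors was not tested.

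Of the mitochondrial list 4 of 5 genes were tested and all 4 log2 changes were positive, with a median of 0.26 that turned to -0.023 without shGm26917 replicate 1. After quantile normalization 2 of the 4 were negative. Cycs, the cytochrome c that triggers APAF1, had a TE of 0.0482 and 0.0103 in shGm26917, against 0.0133 and 0.00830 in shNC. Htra2, a mitochondrial protease that antagonises XIAP once released, had 1.96 and 1.21 against 1.29 and 1.14. The flavoprotein Aifm1 had 1.72 and 1.93 against 1.72 and 1.86, close to equal in all libraries. Limma adjusted p ranged from 0.965 to 0.994 for these 3 genes, and Diablo was listed at 0 in every library. In the PIDDosome, the platform of caspase-2, Pidd1 had 0.299 and 0.401 in shGm26917, against 0.676 and 0.313 in shNC, and Cradd had 6.79 and 2.08 against 2.69 and 1.84. The groups overlapped for both genes (limma adjusted p = 0.965).

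Of the inflammasome list, which holds the partners of caspase-1, 2 of 9 genes were tested. Gsdmd, the pore-forming substrate of caspase-1, had a TE of 2.33 and 2.27 in shGm26917, against 1.23 and 1.28 in shNC. Both shGm26917 libraries lay well above both shNC libraries, with replicates close in each group. For Gsdmd the log2 change was 0.87 ± 0.29 (SE, 2 libraries in each group, adjusted p = 0.965 by limma, unadjusted p = 0.0303), so Gsdmd stood at the study's threshold, as 2.17% of all genes did, but was not called. It lay between 0.84 and 0.91 with any library left out. On the Gsdmd ORF of 487 codons the footprint values were 0 and 88.4 in shGm26917, against 66.3 and 64.1 in shNC. The sensor Nlrp3 had a TE of 1.99 and 1.26 against 1.33 and 1.38, and the groups overlapped.

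Pycard, the adaptor that joins sensors to caspase-1, had a TE of 10.6 and 0.508 in shGm26917 and was listed at 0 in both shNC libraries. Macrophages express Casp1, Gsdmd and Pycard, and markers of these cells stood beside them. The 4 tested macrophage markers of the 8 had positive log2 changes, with a median of 0.46. Leaving out shNC replicate 2 gave a median of 0.27, and leaving out shGm26917 replicate 2 gave 3 positive and 1 negative change. The other 4 markers were listed at 0 in at least 1 library and were not tested. Adgre1 had a TE of 1.03 and 1.37 in shGm26917, against 0.969 and 0.905 in shNC. Cd68 had 0.957 and 0.612 against 0.677 and 0.385, and Ptprc had 0.486 and 0.768 against 0.515 and 0.472. The groups overlapped for Cd68 and Ptprc. Lyz2 had 12.0 and 1.25 against 0.272 and 0.177 (log2 change 4.15, limma adjusted p = 0.965, unadjusted p = 0.0155), which stood at the study's threshold. The Lyz2 change was 2.51 without shGm26917 replicate 1 and 5.78 without shGm26917 replicate 2. Tyrobp had 0 and 0.844 in shGm26917, against 0.955 and 0.798 in shNC, and Csf1r had 0 and 6.58 against 3.94 and 0.618. Itgam was listed at 0 in all 4 libraries, and C1qa was listed at 0 in shGm26917 and had no ratio in shNC. The summed ORF value of the list, from the 2 genes with an ORF, was 0 and 1436 in shGm26917 and 1074 and 772 in shNC. Their part in the values of Casp1, Gsdmd and Pycard was not tested. A TE is a ratio of footprints to RNA, so it gives neither the number of cells of a type nor their RNA level.

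Necroptosis, the death route that caspase-8 restrains, was represented by Ripk3 and Mlkl. Ripk3 had a TE of 1.35 and 1.82 in shGm26917, against 1.25 and 1.66 in shNC, and Mlkl had 0.602 and 1.55 against 1.09 and 1.46. The groups overlapped for both genes (limma adjusted p = 0.978 and 0.965).

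All 11 caspase substrates were tested, with 6 positive and 5 negative log2 changes and a median of 0.067. The repair enzyme Parp1 had a TE of 2.67 and 1.94 in shGm26917, against 1.56 and 2.11 in shNC. The nuclear lamin Lmna, the substrate of caspase-6, had 6.57 and 5.81 against 5.09 and 6.10, and Dffa, the inhibitor of the caspase-activated nuclease, had 2.80 and 1.08 against 1.82 and 1.47. The groups overlapped for all 3 genes, with limma adjusted p from 0.965 to 0.988. The list median turned to -0.052 after quantile normalization, to -0.055 without shNC replicate 1 and to -0.12 without shGm26917 replicate 2. Bid, a BCL2 family substrate of caspase-8, had 0.253 and 0.708 in shGm26917, against 0.810 and 0.786 in shNC.

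**Figure D5:**
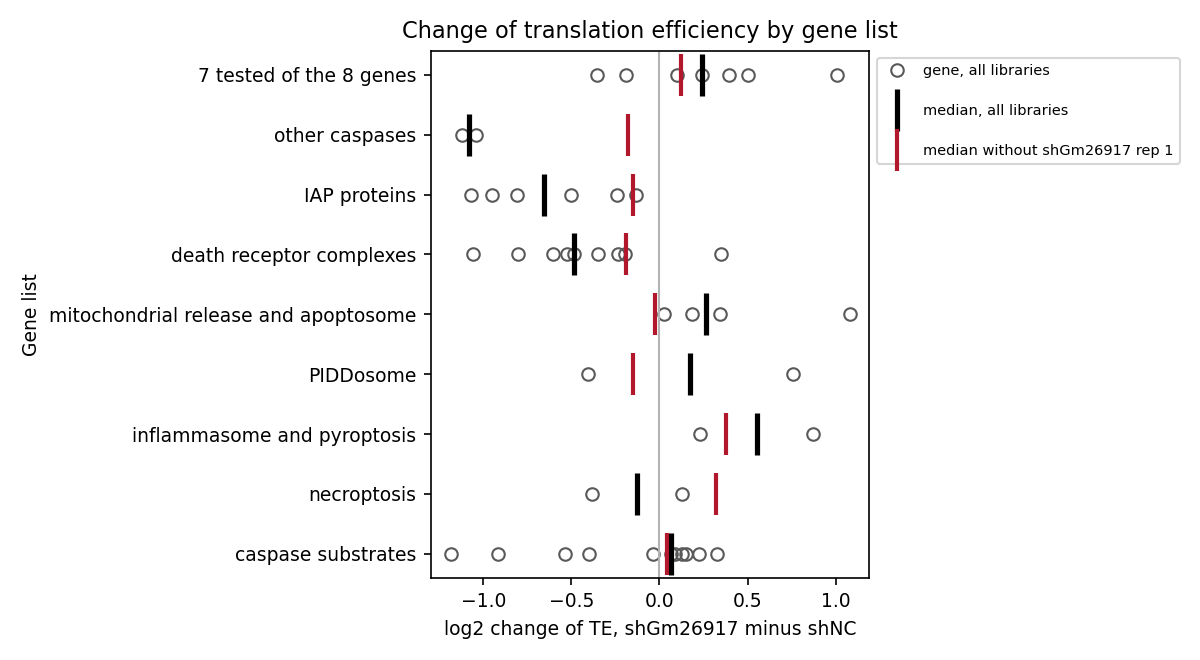
The log2 change of TE (shGm26917 minus shNC) for each tested gene of each list as open circles, with the list median over all libraries as a black bar and without shGm26917 replicate 1 as a red bar. The medians of other caspases (-1.08), IAP proteins (-0.65) and death receptor complexes (-0.48) move to -0.18, -0.15 and -0.19 without that library.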

How the data were processed

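Ribo-seq libraries of FGSCs, 2 shGm26917 and 2 shNC, were grouped and numbered from the sample labels. In the gene table, the authors formed TE as a ratio of normalized Ribo-seq to normalized RNA-seq per gene and library, on mm10, and left some ratios blank. In the ORF table, the authors called ORFs with RiboCode and deposited signal values, which are footprint reads scaled by library. Within a library all values above 0 (100%) were multiples of 1 smallest step to within 0.01 reads, so whole reads could be recovered. The sources used here give no aligner or counter. Fold changes, p-values and classes of the authors' own comparisons were deposited too and not used.

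TE was tested with limma 3.58.1 (R 4.3.3; lmFit, eBayes with trend) on log2(TE) for 10115 genes above 0 in all 4 libraries. ORFs were tested on log2(value + 1), where a value over 1 in at least 2 libraries was required and all 4669 passed, a scale that understates low values. Adjustment was by Benjamini-Hochberg over all features. Recovered reads were also tested with edgeR 4.0.16 (quasi-likelihood, TMM) and DESeq2 1.42.0. The procedure was tested on simulated data, where every TE library had the spread of the shNC pair. The wider spread of shGm26917 was not simulated. Named genes were the 8 genes, and of each list the first 3 in written order above 0 in all libraries. Members and lists were chosen with earlier results of these data known. RefSeq symbols of GRCm38.p6 matched all 8 genes. Some genes of the wider lists are not reported here.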

Additional observations from a re-analysis of the deposited data

How the results depend on the processing

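Of the 7 tested genes, none reached an adjusted p under 0.05 in limma under any alternative tried (quantile normalization, median centring, zeros kept with log2(TE + 0.01), genes above the median TE, protein coding genes alone, eBayes without trend, replicate block, 1 library left out). Genes called for TE numbered 0 to 583 with 1 library left out, the 583 without shGm26917 replicate 2, and genes at the study's threshold 71 to 3472. That count was 498 with zeros kept and 140 with genes above the median TE, a setting that leaves 2 of the 7 genes, Casp6 and Fadd, with a median log2 change of 0.075. With 1 library left out, the median of the 7 ranged from 0.11 to 0.21, Casp8 from -0.34 to 0.54 and Apaf1 from -0.46 to 0.078. ORFs called numbered 0 to 1982 and ORFs at the study's threshold 257 to 2152 with 1 library left out, the highest again without shGm26917 replicate 2. ORFs at that threshold numbered 9 for ORFs above 0 in all libraries, where Fadd and Xiap drop out, and 4 with edgeR. The ORF change ran from -2.99 to 3.32 for Fadd and from -3.46 to 2.88 for Xiap, since each had 1 listed library per group. A lone library is assumed to vary like the other group, so calls without shGm26917 replicate 2 rest on no spread within shGm26917. Replicate numbers were treated as names only, and same-numbered deviations correlated at -0.043 (TE) and -0.086 (ORFs). This correlation over genes rests on 2 libraries per group and cannot settle whether libraries were paired. Under the replicate block no gene or ORF was called (0 of each), and 284 genes and 244 ORFs passed the study's threshold. List alternatives with 1 library left out were chosen after seeing the data.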
